A study of Mus musculus with 2 samples.

Results

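The members are the ATP-binding cassette (ABC) transporter genes and the organic anion transporting polypeptide genes (OATPs, encoded by Slco genes) of the mouse liver methylome. They were taken by name alone, as every autosomal protein-coding gene of the mm9 GENCODE annotation whose symbol is Abca to Abcg or Slco followed by a number. This gave 63 genes of 21418, namely 48 ABC genes and 15 Slco genes. The assay was reduced representation bisulfite sequencing (RRBS), which cuts DNA with MspI at CCGG sites and reads methylated cytosines as those that bisulfite left unconverted. The KI library came from male mice homozygous for the Uhrf1 YP187/188AA knock-in, and the WT library from male wild-type mice. All mice were 3 months old, each library pooled liver DNA of 3 of them, and the strain label of both is C57BL/6. The genotype label of the KI sample reads knock out, whereas its title reads KI, and the title was followed. The knock-in replaces a tyrosine and a proline of the tandem Tudor domain of Uhrf1, is carried by every cell, and was made in 129/SV-derived embryonic stem cells with a Neo cassette in a neighbouring intron.

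ABC transporters are membrane pumps that couple ATP hydrolysis to the export of lipids, bile acids, conjugated drugs and peptides, and OATPs carry bile acids, steroid conjugates and thyroid hormones into cells. In hepatocytes the OATPs work at the blood side, one set of ABC pumps secretes into the bile canaliculus, and another set exports back to blood. Uhrf1 brings the maintenance methyltransferase Dnmt1 to newly replicated DNA, where it recognises half-methylated CpGs and, through its tandem Tudor domain, methylated lysine 9 of histone H3. Active vertebrate promoters of the CpG-island kind are usually unmethylated, while gene bodies are usually methylated.

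A CpG cytosine with at least 5 reads in both libraries is called shared. There were 2654195 shared CpGs in all, with a median depth of 37 reads in each library and a mean methylation of 42.6% in KI and 45.6% in WT. The members held 6416 of them between 2 kb upstream of the 5' end and the gene end, of which 1871 lay in promoters (within 1 kb of the 5' end) and 4479 in bodies (further downstream). Slco1b2 and Slco6c1 had none. Abca3 and Abca17, which start back to back, share 158 of these CpGs, and Abcg5 and Abcg8, which lie on opposite strands and overlap at their 5' ends, share 24. A change is the KI level less the WT level, in percentage points, with the same weight for each CpG, and intervals are 95% intervals that cover counting error only. With 1 library per genotype, every test compares these 2 libraries and not the genotypes, and no spread between animals can be given. In bulk liver, a lower level in all cells and a larger share of cells without the mark cannot be told apart. The tissue label was set against 5 measured promoters of hepatocyte genes, whose levels ran up to 45.2% in KI and 56.7% in WT with transferrin (Trf) at 0% in both, whereas the 4 measured promoters of blood and endothelial genes lay at 48.5% or more in KI and 65.3% or more in WT. The promoters of the neuron genes Syt1 and Snap25 were also low, at 3.19% and 0.595% in KI and 3.90% and 0% in WT, so promoter levels alone do not settle the cell type.

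The bodies of the transporter genes were less methylated in KI, and their promoters were close to unmethylated in both libraries. Over the 4479 body CpGs the mean was 62.6% in KI and 65.9% in WT, a change of -3.34 points (interval -3.61 to -3.08), against 53.1% in KI and 55.6% in WT and a change of -2.52 points over the bodies of all genes. Over the 1871 promoter CpGs it was 3.94% in KI and 4.26% in WT, a change of -0.33 points whose interval (-0.67 to 0.01) included 0, and the sign of that mean turned when CpGs were weighted by their reads. Exonic body CpGs changed by -2.34 points and intronic ones by -3.70 points, against -1.86 and -2.84 points in all genes. The profile around the 5' end shows where methylation sets in along these genes.

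**Figure D1:**
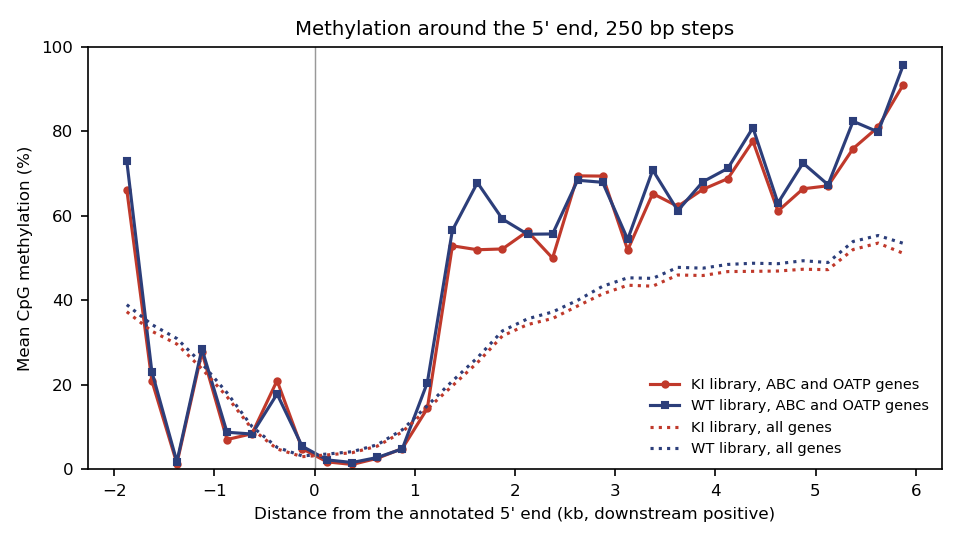
Mean methylation of shared CpGs (%) in steps of 250 bp by distance from the annotated 5' end (kb), for the transporter genes (solid) and all protein-coding genes (dotted), with the KI library in red and the WT library in blue. Both libraries are under 10% just downstream of the 5' end and over 50% from 2.5 kb on in the transporter genes, and steps differ in how many genes and CpGs they hold.

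A body or promoter with 5 or more shared CpGs was called lower or higher when a pair of tests gave the direction of its mean change, each with a Benjamini-Hochberg adjusted p below 0.05 over all genes. One was Fisher's exact test, which adds up the reads of all CpGs, and the other was the Cochran-Mantel-Haenszel test, which treats every CpG as its own stratum. Of the 54 measured bodies, 26 were called lower in KI and 0 higher, against 35.0% lower and 0.736% higher among the 14130 measured bodies of all genes. The means of 49 bodies lay below 0, and the median change was -2.82 points, against -1.94 over all genes. The transporter bodies were also more methylated to begin with: among bodies over 50% in WT, 24 of 48 were lower (50%), against 37.5% of all genes. Another 13 bodies passed the test with CpGs as strata alone, and 1 passed that on summed reads alone. When only 1 CpG per 100 bp and strand was kept, which limits how often a read is counted, 18 bodies were called lower and 10 of the 26 lost their call, among them Abcb1a, Abcb6, Abcc10, Abca3, Abca7 and Abca12. The counts of lower bodies in the small groups below are to be set beside the 35.0% of all genes, and no group was tested against it.

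**Figure D2:**
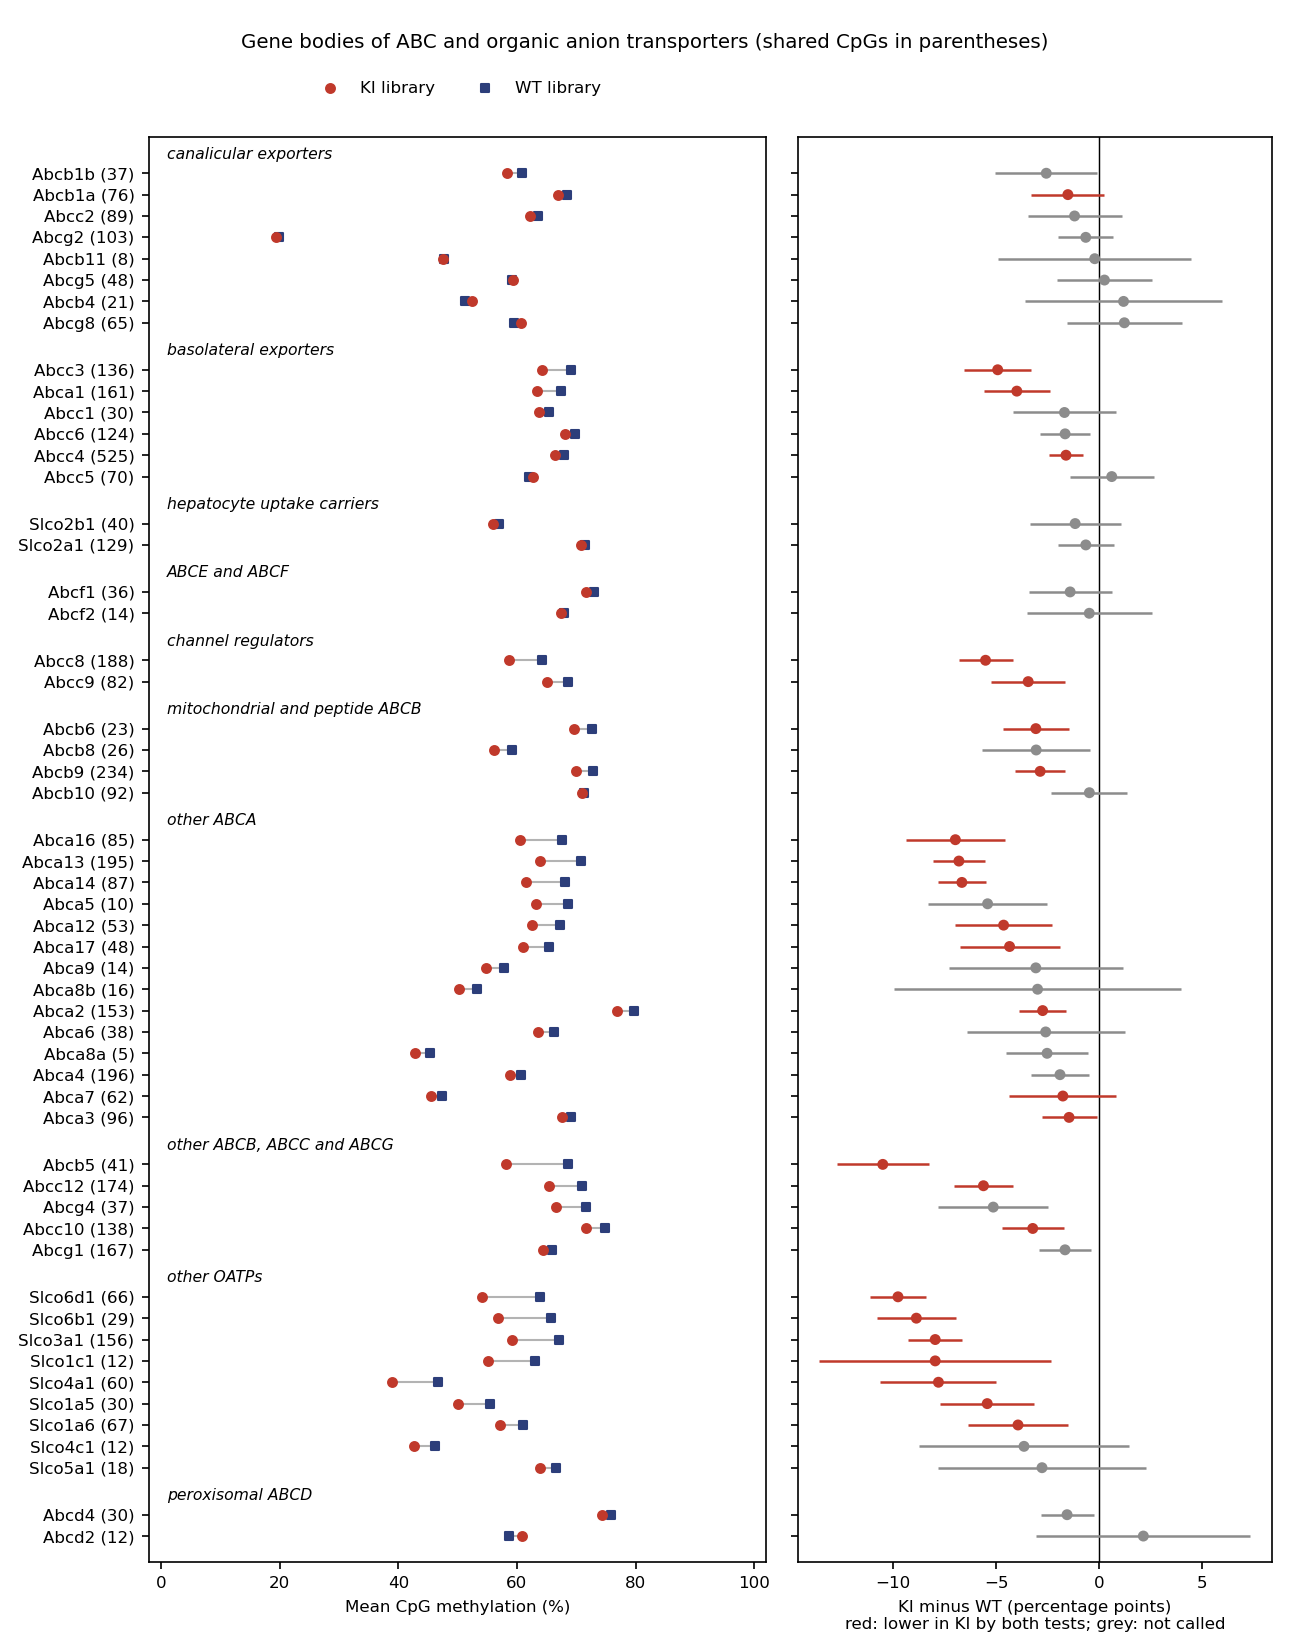
Left, mean methylation (%) of each of the 54 measured gene bodies in the KI library (red circles) and the WT library (blue squares), grouped by role and with the number of shared CpGs in parentheses. Right, KI minus WT in percentage points with 95% counting intervals, where red marks the 26 bodies lower in KI by both tests and grey the others. The OATPs outside hepatocyte uptake and Abcb5 lie furthest to the left, and the canalicular exporters lie around 0.

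Among the canalicular exporters, which pump bile acids, phospholipid, sterols and drugs into bile, all 8 bodies were measured and 1 was called lower. Their median change was -0.43 points, and their 447 body CpGs averaged 51.6% in KI and 52.2% in WT. The called one was Abcb1a, a multidrug exporter, at 67% in KI and 68.5% in WT over 76 CpGs, a change of -1.52 points whose interval (-3.29 to 0.25) included 0. Of those 76 CpGs, 73 lay in repeated sequence, meaning that the 16-base words around them occur at a median of 100 times or more in mm9. Its neighbour Abcb1b, the other rodent form of this exporter, had 58.2% in KI and 60.8% in WT over 37 CpGs, and passed only the test with CpGs as strata.

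Abcc2, which exports bilirubin glucuronides, had 62.3% in KI and 63.5% in WT over 89 body CpGs and was not called. Abcb4, which moves phosphatidylcholine into bile, had 52.4% in KI and 51.3% in WT over 21 CpGs. Abcg5 had 59.4% in KI and 59.1% in WT over 48 CpGs. It works as a heterodimer with Abcg8, which excretes sterols with it, and whose body had 60.7% in KI and 59.4% in WT over 65 CpGs. The Abcb4 mean was not stable: its change was 1.18 points, but -5.49 at a minimum of 10 reads and -2.16 at 20 reads. None of these 4 genes passed either test, with intervals of -3.48 to 1.09 points for Abcc2, -3.60 to 5.97 for Abcb4, -2.06 to 2.57 for Abcg5 and -1.57 to 4.02 for Abcg8.

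The bile salt export pump Abcb11 was read at only 8 body cytosines, all in CCGG sites, with a mean of 47.5% in KI and 47.7% in WT. This mean stands between 2 sets of values: 4 cytosines read 87 to 96.6% in KI and 90 to 96.4% in WT, and the opposite strand of the same sites read 0 to 4.35% in KI and 0 to 10% in WT. Over all member bodies, 715 of 1784 CCGG cytosines were under 10% in both libraries, against 119 of 2695 others. MspI cuts at these sites, and in the usual protocol the cut ends are filled in with new nucleotides before bisulfite treatment, the part of which in these low values was not tested. Outside CCGG sites the member bodies averaged 75.9% in KI and 79.9% in WT, a change of -3.97 points, against -2.95 in all genes.

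Abcg2, a urate and drug exporter, had 19.3% in KI and 20% in WT over 103 body CpGs. Of these, 72 lay within 213 bp of another annotated transcript start, 55810 to 56199 bp downstream of the annotated 5' end, and averaged 0.17% in KI and 0.23% in WT. The other 31 averaged 63.8% in KI and 65.8% in WT. The Abcg2 body was thus an unmethylated start region inside a methylated gene, and its summed reads passed Fisher's exact test towards higher in KI, while its mean was lower and the test with CpGs as strata was not passed.

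Of the 6 basolateral exporters, which return conjugates and lipids to blood, 3 bodies were lower in KI. Abcc3, which exports bile acid and bilirubin conjugates, had 64.3% in KI and 69.2% in WT over 136 CpGs, a change of -4.92 points (interval -6.56 to -3.29), which was -2.23 points at a minimum of 10 reads and -1.94 at 20 reads. Abca1, which loads cholesterol onto apolipoprotein A-I, had 63.4% in KI and 67.4% in WT over 161 CpGs. Its interval was -5.61 to -2.38 points, and the change was -2.76 points without the 71 CpGs in repeated sequence. Abcc4, an exporter of cyclic nucleotides and bile acids, held the most shared CpGs of any member (573, of which 525 in the body), with 66.4% in KI and 68.0% in WT in the body and a change of -1.61 points (interval -2.45 to -0.76).

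Abcc6, known for pseudoxanthoma elasticum when lost in humans, had 68.2% in KI and 69.8% in WT over 124 body CpGs. Abcc1, a glutathione conjugate exporter, had 63.8% in KI and 65.4% in WT over 30 CpGs, and both genes passed only the test with CpGs as strata. Abcc5, a nucleotide analogue exporter, had 62.6% in KI and 62.0% in WT over 70 CpGs and passed neither. The basolateral changes thus ran between -4.92 and 0.61 points. All 3 basolateral calls were lost when 1 CpG per 100 bp and strand was kept, with -3.28 points for Abcc3, -1.77 for Abca1 and -1.61 for Abcc4.

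The 5 genes grouped as hepatocyte uptake carriers had the smallest share of measured bodies, and 0 of their 2 measured bodies were called. Slco2a1, a prostaglandin carrier, had 70.8% in KI and 71.5% in WT over 129 body CpGs, a change of -0.65 points (interval -1.99 to 0.70). Those 129 were most of the 177 body CpGs of the group, and Slco2a1 was placed in it by hand, not from these data. Slco2b1 had 55.9% in KI and 57.1% in WT over 40 CpGs, a change of -1.16 points (interval -3.38 to 1.05). Slco1a1 and Slco1a4, bile acid carriers of rodent liver, each had 4 body cytosines in a pair of CCGG sites, and were not tested. In Slco1a1 the methylated cytosine of each site had 83.3% and 89.2% in KI and 94.6% and 87.6% in WT. In Slco1a4 it had 86.3% and 70.4% in KI and 91.5% and 91.7% in WT, with 27 reads in KI and 24 in WT at the second. The other cytosine of each site was under 4% in both libraries.

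The OATPs outside this group had the lowest values relative to WT. Of their 9 measured bodies, 7 were lower in KI (77.8%, against 35.0% of all genes), with a median change of -7.80 points. Their 450 body CpGs averaged 54.3% in KI and 61.5% in WT, with 329 lower, 84 higher and 37 equal. Outside CCGG sites the change of these CpGs was -9.67 points, and without repeated sequence it was -6.73 points, while the same 2 settings gave -0.21 and -0.46 points for the canalicular exporters. Outside CCGG sites the WT mean was 78.6% in these OATPs and 59.2% in the canalicular exporters. There 73 of 273 canalicular CpGs were under 10% in both libraries, against 3 of 215 in these OATPs. Most of the 73 lay in the Abcg2 start region described above, whose 72 CpGs, 6 of them in CCGG sites, were all under 10%. The difference between the groups was not tested. The share of body CpGs in repeated sequence was 20.2% in these OATPs and 19% in the canalicular exporters, against 9.18% in the basolateral ones. Most of the 85 repeated canalicular CpGs lay in Abcb1a alone.

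Slco6d1 and Slco6b1 are rodent OATPs, both on chromosome 1. The Slco6d1 body had 54.1% in KI and 63.8% in WT over 66 CpGs, of which 52 were lower, with 7529 reads in KI and 9028 in WT. Its change of -9.76 points (interval -11.1 to -8.42) had adjusted p = 3.93e-26 by Fisher's exact test and was -9.54 points without repeated sequence. The Slco6b1 body had 56.8% in KI and 65.7% in WT over 29 CpGs, a change of -8.87 points, and 25 of the 29 were in repeated sequence, so that too few CpGs were left for a test without them.

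Slco3a1, a widely expressed carrier of thyroxine and prostaglandins, spans 278 kb of body and was read at 156 CpGs with 14323 reads in KI and 17753 in WT. It had 59.2% in KI and 67.1% in WT, with 120 CpGs lower and 23 higher and a change of -7.96 points (interval -9.28 to -6.63; adjusted p = 2.99e-45 by Fisher's exact test). Slco4a1, a thyroid hormone carrier, had 38.9% in KI and 46.7% in WT over 60 CpGs, a change of -7.80 points with 0 CpGs in repeated sequence. Slco1c1, the thyroxine carrier of the blood-brain barrier, had 55.1% in KI and 63% in WT over 12 CpGs, with 11 of them lower. Its call was lost at a minimum of 20 reads, after thinning to equal reads (-5.76 points), with 1 CpG per 100 bp and strand and without repeated sequence.

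Slco1a5 had 50% in KI and 55.4% in WT over 30 CpGs, and lost its call when the 16 repeated ones were left out (-2.50 points). Slco1a6 had 57.1% in KI and 61% in WT over 67 CpGs. Slco4c1, a kidney carrier, had 42.6% in KI and 46.2% in WT over 12 CpGs and passed neither test. Slco5a1 had 63.9% in KI and 66.7% in WT over 18 CpGs and passed only the test with CpGs as strata. The 9 bodies of this group therefore ran from -9.76 to -2.77 points.

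The ABCA lipid transporters other than Abca1 were lower in 8 of 14 measured bodies, with a median change of -3.03 points. Abca16, one of a row of rodent ABCA genes on chromosome 7, had 60.6% in KI and 67.6% in WT over 85 CpGs, a change of -6.98 points. Without the 63 CpGs in repeated sequence the other 22 changed by -14.4 points. Most of these 22 lay in an intronic stretch of 280 bp (chr7:127591931-127592210). The 26 measured cytosines of that stretch, 4 of them repeated on each strand, changed by -19.2 points. The value of -14.4 points thus describes mainly that stretch and not the body at large. The Abca16 neighbour Abca14 had 61.4% in KI and 68.1% in WT over 87 CpGs. Abca13, the longest ABC gene at 491 kb of body, had 63.9% in KI and 70.7% in WT over 195 CpGs, 145 of them lower. Abca13 changed by -6.81 points, and by -6.05 points without its 105 repeated CpGs.

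Abca12, the keratinocyte lipid transporter, had 62.6% in KI and 67.3% in WT over 53 body CpGs, and Abca17 had 61.1% in KI and 65.4% in WT over 48. Abca2, which is best known from brain, was the most methylated of the measured bodies, at 76.9% in KI and 79.7% in WT over 153 CpGs. Abca7 had 45.6% in KI and 47.3% in WT with an interval that included 0 (-4.36 to 0.84), and Abca3, the surfactant lipid transporter of lung, had 67.6% in KI and 69.1% in WT. Of the chromosome 11 row Abca5, Abca6, Abca8a, Abca8b and Abca9, whose bodies held 5 to 38 CpGs each, none was called lower.

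Both channel regulators were lower. Abcc8, the sulfonylurea receptor of the pancreatic beta cell, had 58.6% in KI and 64.2% in WT over 188 body CpGs, a change of -5.51 points, and 0 of these CpGs were in repeated sequence. Abcc9, its cardiac and vascular counterpart, had 65.1% in KI and 68.6% in WT over 82 CpGs, a change of -3.44 points.

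Of the remaining ABC bodies, Abcb5 had the largest loss of all measured member bodies, at 58.1% in KI and 68.6% in WT over 41 CpGs. Of these, 38 were lower, the change was -10.5 points (interval -12.7 to -8.28; adjusted p = 1.02e-27 by Fisher's exact test), and the 9 CpGs outside repeated sequence changed by -13.2 points. Abcc12 had 65.4% in KI and 71% in WT over 174 CpGs, a change of -5.62 points with 0 repeated CpGs. Abcc10 had 71.6% in KI and 74.9% in WT over 138 CpGs. It lies on chromosome 17, as do Uhrf1 and the members Abca3, Abca17, Abcg1, Abcf1, Abcg5 and Abcg8. The Abcc10 reads per CpG were 77.1 in KI and 132 in WT. The part of that difference in depth was not tested, and the change was -1.94 points without repeated sequence.

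The mitochondrial and peptide ABCB transporters were lower in 2 of 4 bodies. Abcb9, a lysosomal peptide transporter, had 69.9% in KI and 72.8% in WT over 234 CpGs, and Abcb6, a porphyrin transporter, had 69.6% in KI and 72.7% in WT over 23. The 2 measured ABCD bodies, which belong to the peroxisomal fatty acid importer Abcd2 and to the cobalamin transporter Abcd4, were not called. Nor were the 2 measured bodies of Abcf1 and Abcf2, which are translation factors that carry no membrane domain.

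For single CpGs, Fisher's exact test was adjusted over every shared CpG, and a call needed both a p below 0.05 after adjustment and more than 25 points between the libraries. The members held 54 CpGs called lower in KI and 3 called higher, all in bodies, against 1.09% lower and 0.0474% higher among all shared CpGs. As a share of the 4479 body CpGs these were 1.21% and 0.067%, against 0.677% and 0.0646% in the bodies of all genes. The lower ones lay in 19 genes, 47 in introns and 7 in exons, at a median of 42.6% in KI and 75.8% in WT, with a median of 86 reads in KI and 96.5 in WT. Slco3a1 had 8, Abca13, Abca16 and Slco6d1 had 6 each, and Abca14 had 5. No canalicular exporter and no hepatocyte uptake carrier held a called CpG. Their bodies held only 447 and 177 shared CpGs, so at the 0.677% of all bodies few calls would fall there.

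The single CpG with the largest loss lay in an intron of Abca16, and its stretch is shown here because both strands of the same CpGs were low in KI. By adjusted p the first was a CpG of Abca13, at position 9541428 of chromosome 11, with 44.5% of 461 reads in KI and 75.6% of 750 in WT (adjusted p = 1.32e-23, Fisher's exact test). The sequences below are the plus strand of mm9 in lower case, and capitals mark the CpGs that were measured in both libraries. The Abca16 stretch (chr7:127591931-127592210) held 26 measured cytosines with 2523 reads in KI and 3309 in WT, and 23 of them were lower. The Slco6d1 stretch (chr1:100352635-100352924), also intronic, held 16 with 1764 reads in KI and 2601 in WT, and all 16 were lower.
Abca16 intron: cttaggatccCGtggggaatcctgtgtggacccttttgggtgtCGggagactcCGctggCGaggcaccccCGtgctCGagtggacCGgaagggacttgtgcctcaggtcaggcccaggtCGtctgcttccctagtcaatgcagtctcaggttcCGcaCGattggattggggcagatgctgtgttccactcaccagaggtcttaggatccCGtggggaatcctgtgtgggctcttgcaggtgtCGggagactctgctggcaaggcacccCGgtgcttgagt
Slco6d1 intron: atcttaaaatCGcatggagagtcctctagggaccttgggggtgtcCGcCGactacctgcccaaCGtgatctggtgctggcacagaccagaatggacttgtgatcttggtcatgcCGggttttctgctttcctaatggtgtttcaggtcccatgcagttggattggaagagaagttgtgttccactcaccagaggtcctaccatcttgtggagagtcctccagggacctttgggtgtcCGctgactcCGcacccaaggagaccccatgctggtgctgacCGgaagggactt
The Abca16 stretch averaged 57.6% in KI and 76.9% in WT, with changes of -18.4 points on the plus strand and -20.0 on the minus strand. Its CpG at position 127592050 had 19.9% of 171 reads in KI and 70.4% of 216 in WT, and the opposite cytosine at 127592051 had 24.5% of 139 reads in KI and 84.3% of 172 in WT (adjusted p = 1.70e-23, Fisher's exact test). The CpG at 127592084 had 93.6% in KI and 95.8% in WT, so the stretch was not lowered evenly. The Slco6d1 stretch averaged 52.8% in KI and 67.3% in WT, with -14.3 points on the plus strand and -14.7 on the minus strand. The 2 stretches share a run of 22 bases, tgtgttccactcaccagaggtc, which occurs 6782 times in mm9.

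Slco3a1 and Slco4a1 held lower CpGs outside such sequence, and are shown for that. The Slco3a1 stretch (chr7:81488795-81489014) is intronic and its words occur at a median of 1.5 times. The Slco4a1 stretch (chr2:180206930-180207183) lies 18 to 194 bp from another annotated start of the gene, with 8 of its 18 cytosines in an exon.
Slco3a1 intron: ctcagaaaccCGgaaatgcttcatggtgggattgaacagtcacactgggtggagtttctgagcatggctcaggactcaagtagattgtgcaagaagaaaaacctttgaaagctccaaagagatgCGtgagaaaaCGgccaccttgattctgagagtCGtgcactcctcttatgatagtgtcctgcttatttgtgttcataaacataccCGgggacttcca
Slco4a1 body: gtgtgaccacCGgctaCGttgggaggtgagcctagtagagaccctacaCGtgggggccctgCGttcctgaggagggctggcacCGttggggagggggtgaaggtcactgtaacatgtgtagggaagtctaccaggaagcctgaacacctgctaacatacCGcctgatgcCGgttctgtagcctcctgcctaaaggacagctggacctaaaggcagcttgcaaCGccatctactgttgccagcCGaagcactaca
The Slco3a1 stretch averaged 53.6% in KI and 65.6% in WT over 10 cytosines, of which 6 were lower and 3 higher. Its CpG at position 81488930 had 41.2% of 34 reads in KI and 92.5% of 53 in WT, and its CpG at 81488805 had 44.1% in KI and 76.2% in WT. The Slco4a1 stretch averaged 26.9% in KI and 37.3% in WT with 17 of 18 cytosines lower, and none passed the single-CpG call. The lower values in the Slco4a1 stretch were thus spread over many CpGs. The Slco3a1 stretch does not stand for its body, most of whose CpGs were lower, and how the stretches differ was not tested.

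**Figure D3:**
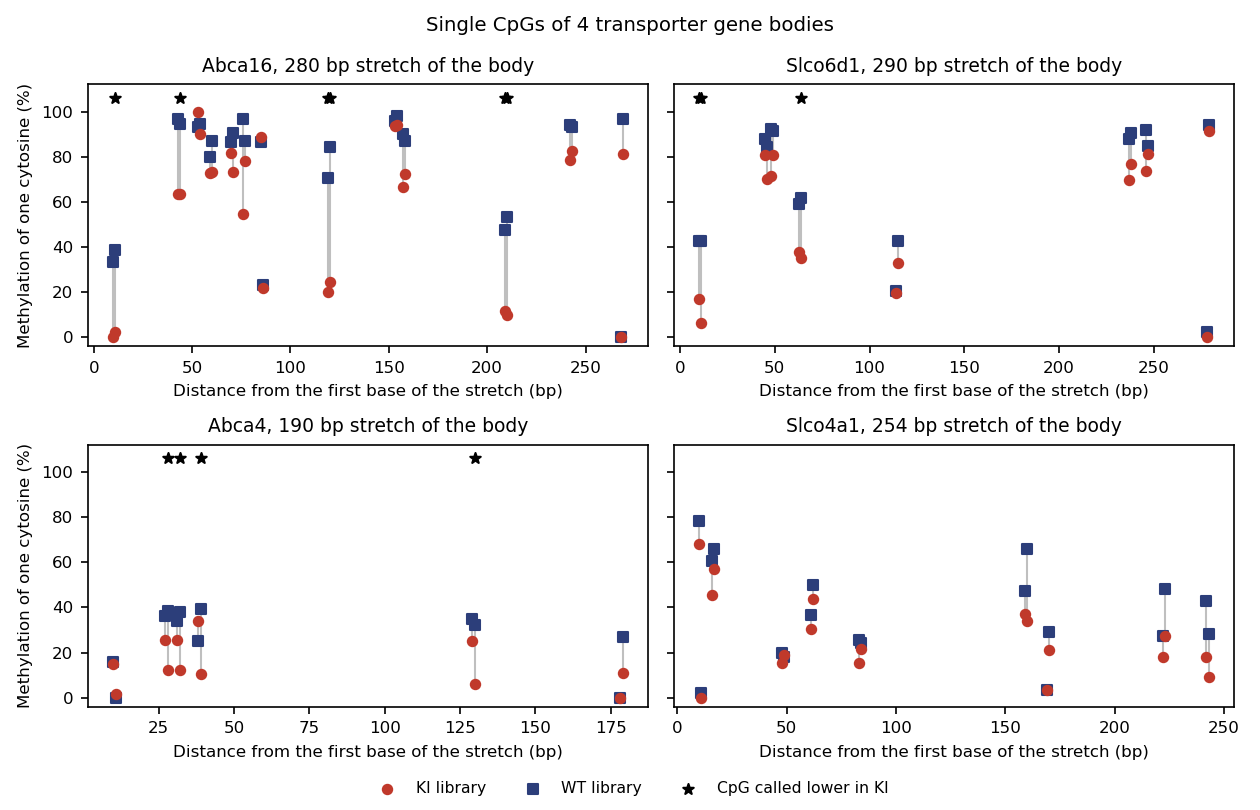
Methylation (%) of single cytosines in the KI library (red circles) and the WT library (blue squares) along 4 stretches of transporter bodies, by distance from the first base of the stretch (bp), with stars over cytosines called lower in KI. In Abca16 and Slco6d1 both strands of the same CpGs drop together, in Abca4 the starred cytosines are all on 1 strand, and in Slco4a1 17 of 18 cytosines lie lower in KI without a star.

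Abca4, which clears retinoids in photoreceptors, was not called as a body (58.7% in KI and 60.6% in WT over 196 CpGs) but held 4 called CpGs at 113 to 215 bp from another annotated transcript start, 3 of them in an exon. The stretch (chr3:121777459-121777648) is shown because its strands differed.
Abca4 body: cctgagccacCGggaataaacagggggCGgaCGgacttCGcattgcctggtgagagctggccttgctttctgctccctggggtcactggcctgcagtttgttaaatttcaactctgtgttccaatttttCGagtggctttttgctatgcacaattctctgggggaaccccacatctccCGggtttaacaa
On the minus strand the 6 cytosines averaged 8.87% in KI and 29.1% in WT, and on the plus strand 20.8% in KI and 24.4% in WT. Reads per cytosine were nearly constant on each strand, at 64 to 66 in KI and 96 to 103 in WT on the minus strand. The 4 calls may therefore rest on the same reads.

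The 3 CpGs called higher were all in CCGG sites. In Abca3, the cytosine at position 24524564 of chromosome 17 had 43.1% of 72 reads in KI and 11.1% of 81 in WT, while the opposite strand of the same site at 24524565 had 58.1% of 62 reads in KI and 85.3% of 68 in WT and was called lower. In Abcc12 the cytosine at 89048677 of chromosome 8 had 87.5% of 48 reads in KI and 48.4% of 31 in WT. In Abca1 the cytosine at 53059163 of chromosome 4 had 65.5% of 29 reads in KI and 15.8% of 19 in WT. None of the 3 remained when CCGG sites were left out.

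The genome was also cut into 1 kb windows, and those holding 5 or more shared CpGs were called with the same 2 limits, an adjusted p of Fisher's exact test below 0.05 and a mean change beyond 25 points. Of the 386 windows with member CpGs, 1 was lower and 2 were higher, against 0.306% lower and 0.0356% higher of 151828 windows in all. The median change was -1.95 points in member windows and -2.78 points in all windows, and 76.4% of member windows and 76.3% of all windows had a mean below 0. None was over 70% in WT and under 20% in KI.

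The lower window was in an intron of Abca13, 467951 bp or more from its 5' end. Stretches of it and of the 2 higher windows are shown (chr11:9559886-9559999, chr5:8928469-8928598 and chr6:142651053-142651156). The higher ones lie in an Abcb4 exon and its intron border, and upstream of Abcc9.
Abca13 intron: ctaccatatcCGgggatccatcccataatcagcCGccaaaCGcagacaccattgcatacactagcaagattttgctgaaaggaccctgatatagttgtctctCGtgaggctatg
Abcb4 exon: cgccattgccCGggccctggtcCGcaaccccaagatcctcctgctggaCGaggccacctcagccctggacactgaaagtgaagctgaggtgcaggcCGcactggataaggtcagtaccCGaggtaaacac
Abcc9 upstream: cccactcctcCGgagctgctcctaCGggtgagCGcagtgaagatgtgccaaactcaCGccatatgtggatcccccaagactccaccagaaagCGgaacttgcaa
The Abca13 window had 47.2% in KI and 73.2% in WT over 8 cytosines, all lower, with 198 reads in KI and 161 in WT, and lies in repeated sequence. The Abcb4 window had 26.5% in KI and 0% in WT over 5 cytosines, with 28 reads in KI and 89 in WT, or 5.6 and 17.8 per cytosine. That exon encodes part of an ATP-binding fold with its Walker B motif. The Abcc9 window had 43.3% in KI and 13.3% in WT over 6 cytosines, with 30 reads in KI and 60 in WT, 5 and 10 at each. The last of them, at position 142651398, lies outside the stretch shown, whose 5 cytosines averaged 52% in KI and 16% in WT. Neither higher window was left at a minimum of 10 reads, and at that depth the lower one was not called either.

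Other windows of the members passed the test without reaching 25 points. The Abca16 window beginning at 127592001 had 57.4% in KI and 76.7% in WT over 18 cytosines with 2316 reads in KI and 2974 in WT, and the Slco6d1 window beginning at 100352001 had 51.3% in KI and 65% in WT over 18. An intronic Abcc3 window beginning at 94247001 had 28.1% in KI and 50.2% in WT over 16 cytosines, at 9 reads per cytosine in KI and 7.81 in WT.

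Promoters could be measured in 41 of the 63 genes, and in 34 the WT level was below 10%. In 4 the level was called lower in KI and in 0 higher, against 6.29% lower and 1.13% higher of the 13841 measured promoters of all genes, and the median change was -0.20 points, against -0.04 over all genes. The largest called loss was at Abca9, on chromosome 11, with 29.4% in KI and 39.4% in WT over 6 cytosines, 1069 reads in KI and 808 in WT, and a change of -9.95 points (interval -13.7 to -6.25; adjusted p = 0.00013 by Fisher's exact test). Abca13 had 33.5% in KI and 42.3% in WT over 14 cytosines, a change of -8.78 points, and lost its call after thinning to equal reads (-7.41 points) and with 1 CpG per 100 bp and strand (-4.29 points). Both lie between methylated and unmethylated, where few transporter promoters were.

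The other 2 called promoters were near 0 in both libraries. Slco2a1 had 1.19% in KI and 2.93% in WT over 32 cytosines with 2112 reads in KI and 2012 in WT, and Abcb9 had 0.066% in KI and 0.973% in WT over 28 with 1362 reads in KI and 2086 in WT. Their changes were -1.75 and -0.91 points, Slco2a1 lost its call in the same 2 settings (-0.75 points in the second), and the interval of Abcb9 (-1.88 to 0.06) included 0. Of the genes grouped as hepatocyte uptake carriers, only Slco2a1 had a measured promoter.

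**Figure D4:**
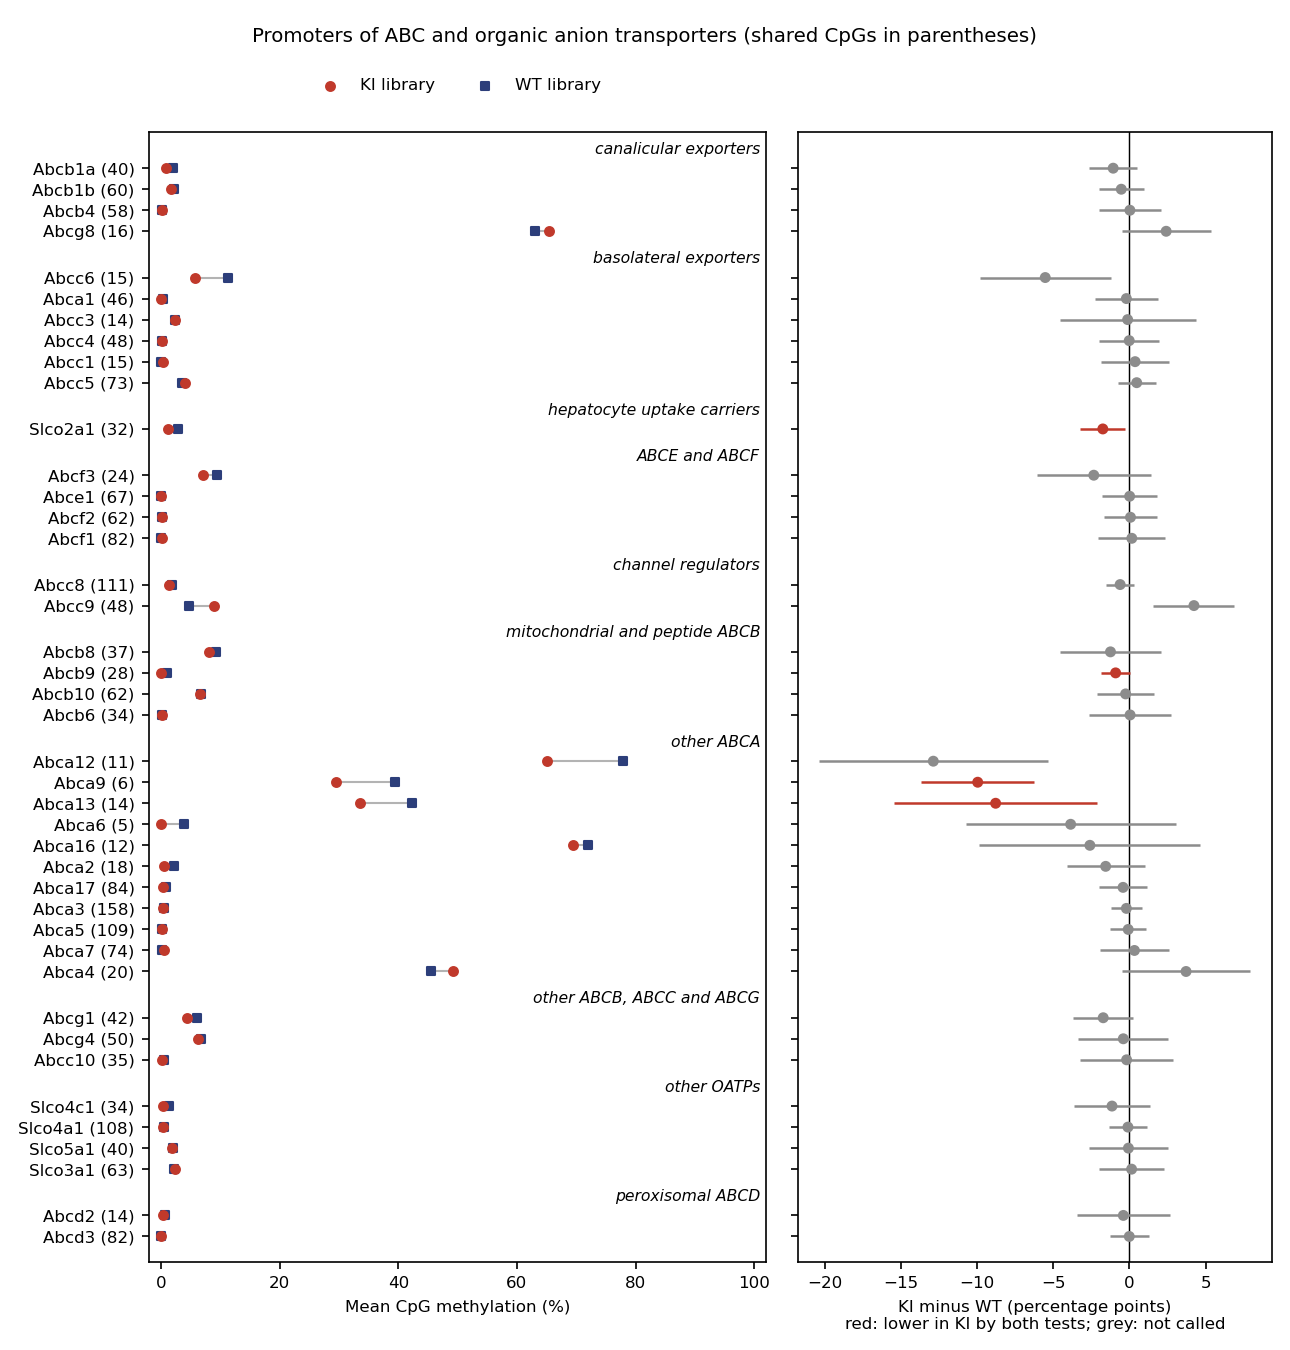
Left, mean methylation (%) of each of the 41 measured promoters in the KI library (red circles) and the WT library (blue squares), grouped by role and with the number of shared CpGs in parentheses. Right, KI minus WT in percentage points with 95% counting intervals, where red marks the 4 promoters lower in KI by both tests. In 34 of the 41 the WT level was under 10%.

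The canalicular exporters Abcb1a, Abcb1b and Abcb4 had promoters close to 0, with 1.64% in KI and 2.17% in WT for Abcb1b and 0.108% in KI and 0.0778% in WT for Abcb4. Abcg8 was the exception, at 65.5% in KI and 63.1% in WT over 16 cytosines with 2037 reads in KI and 1286 in WT. The parts of these promoters outside transcript ends are shown for that contrast (Abcb4, chr5:8894100-8894243, and Abcg8, chr17:85075505-85075603). The measured CpGs of the Abcg8 promoter also lie inside the Abcg5 gene and count as body CpGs there.
Abcb4 promoter: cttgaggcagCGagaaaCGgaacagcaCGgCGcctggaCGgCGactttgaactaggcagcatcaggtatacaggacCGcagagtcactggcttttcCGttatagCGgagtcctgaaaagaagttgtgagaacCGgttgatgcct
Abcg8 promoter: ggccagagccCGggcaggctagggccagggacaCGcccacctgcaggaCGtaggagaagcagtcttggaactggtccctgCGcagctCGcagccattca
In the Abcb4 stretch 20 cytosines had a mean of 0% in KI and 0.074% in WT. In the Abcg8 stretch 10 cytosines had a mean of 64.5% in KI and 63.1% in WT, and neither promoter passed a test.

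All 6 basolateral promoters were measured and 0 were called. Abcc4, Abcc1 and Abca1 were at 0.116, 0.370 and 0.0463% in KI and at 0.130, 0 and 0.247% in WT. Abcc3 had 2.30% in KI and 2.41% in WT, and Abcc5 had 3.98% in KI and 3.50% in WT. Abcc6 had 5.78% in KI and 11.3% in WT over 15 cytosines, an uncalled change of -5.52 points (interval -9.83 to -1.22).

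Methylated promoters also occurred among genes best known from other tissues. Abca12 had 65% in KI and 77.9% in WT over 11 cytosines, a change of -12.9 points (interval -20.4 to -5.37) that passed only the test with CpGs as strata. Abca16 had 69.4% in KI and 72% in WT over 12, and Abca4 had 49.1% in KI and 45.4% in WT over 20. Abcc9 passed the same single test in the other direction, with 8.88% in KI and 4.65% in WT over 48 cytosines. Without its called window the other 42 had 3.96% in KI and 3.41% in WT, so that 6 cytosines of 5 reads each in KI made the difference.

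Of the 38 genes measured in both zones, Abca13 and Abcb9 were lower in both, the Abca13 promoter not under every setting, and 16 were lower in the body with no call in the promoter, 14 of them with a promoter under 10% in WT. Slco3a1 is an example, with 2.33% in KI and 2.19% in WT over 63 promoter CpGs beside the loss in its body. Slco4a1 is another, with 0.318% in KI and 0.416% in WT over 108 promoter CpGs. Abcc8 had 1.26% in KI and 1.87% in WT over 111.

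The genes that work with these transporters were taken as a list of 25 bile acid enzymes, other organic solute carriers and the nuclear receptors that control them. Of their 11 measured promoters 3 were lower and 0 higher, against 6.29% lower among all genes, and of their 19 measured bodies 6 were lower (31.6%) and 0 higher, against 35.0% lower among all genes. The share of bodies was thus close to that of all genes. The listed promoters were more methylated to begin with, at a median of 29.3% in WT, against 0.70% over all genes. Among all promoters over 50% in WT, 26.3% were called lower, but only 2 of the 11 listed promoters were over 50%, and both were called lower. The pregnane X receptor Nr1i2, which drives transcription of drug transporters, had a promoter at 23.8% in KI and 49.9% in WT over 7 cytosines. The organic cation carrier Slc22a2 had 54.4% in KI and 61.1% in WT over 22 promoter cytosines, and Hnf4a was the third. The lower bodies were those of Hnf4a, Nr1i2, Nr1i3, Slc22a2, Slc22a3 and Slc47a1, by -4.26 to -10.7 points. The bile acid uptake carrier Slc10a1 had a body at 61.2% in KI and 60.8% in WT, and its promoter, at 38.4% in KI and 25.8% in WT over 7 cytosines, was not called.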

How the data were processed

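Liver DNA of 3 KI and of 3 WT males was pooled into 1 RRBS library per genotype. The authors mapped reads to mm9 with Bismark (0.12.20 in the submitters' processing notes) and kept unique alignments. How reads were trimmed and duplicates handled is not given in the sources used here. The deposited values are a count of reads and a percent methylated for each CpG cytosine. Methylated reads were recovered as their product and were whole, within the rounding of the deposited percent, for 100% of CpGs. The deposited strand column holds 1 value, so strand and CCGG sites were read from mm9. Listed CpGs numbered 6452685 in KI and 7231934 in WT.

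Shared CpGs had at least 5 reads in both libraries. The 2 tests of promoters and bodies, the single-CpG test and the 1 kb windows were fitted on all protein-coding genes, CpGs or windows, with Benjamini-Hochberg adjustment. Reads spanning several CpGs are counted at each, so p-values are too small and intervals too narrow. Copies of 16-base words were counted up to 255 in mm9. By rule the text names each hepatocyte transporter that was measured, up to 8 called promoters and 8 called bodies by size of loss, up to 3 of each by size of gain, up to 4 windows by loss and 2 by gain, and the 3 members richest in shared CpGs. Other members named were chosen after their values were seen. The members, lists and tests were chosen with earlier results of these data known. Procedures were tested on simulated data. Sequences are from mm9 (NCBI build 37) and annotation from GENCODE; none was printed from an annotated UTR. The work used matplotlib 3.10.9, statsmodels 0.14.6, numba 0.67.0, scipy 1.17.1, pandas 2.3.3 and numpy 2.4.6 in Python 3.11.15. Alternatives were other read minimums, summed strands, no CCGG sites, equal reads, spaced CpGs, read weights, other zones, a chi-square test, single tests, other thresholds and, chosen after seeing the data, no repeated sequence.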

Additional observations from a re-analysis of the deposited data

How the results depend on the processing

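No paired analysis was possible because each genotype had 1 library, and no library could be left out. Of 26 bodies called lower, 12 changed by more than 5 points, and 18 bodies were lower with 1 CpG per 100 bp and strand, 16 of them among the 26. With summed reads alone 1 body (Abcg2) was higher. Of 4 promoters called lower, 2 were left after thinning to equal reads, 1 with 1 CpG per 100 bp and strand, and 2 with a change over 5 points, and with CpGs as strata alone 1 promoter (Abcc9) was higher. The mean promoter change turned to 0.66 points when CpGs were weighted by reads. The mean body change was -3.97 points without CCGG sites, -3.62 weighted by reads and -3.00 without repeated sequence. Called CpGs numbered 27 lower and 0 higher with strands summed and 24 lower with 1 CpG per 100 bp and strand, and 0 higher without CCGG sites. The 1 lower window became 0 at 10 reads, at 20 reads, with strands summed, with 1 CpG per 100 bp and strand and without repeated sequence, 2 without CCGG sites, and 21 with a limit of 10 points. The 2 higher windows became 0 at 10 reads, at 20 reads, without CCGG sites and with 1 CpG per 100 bp and strand, and 1 after thinning. The causes were not tested. Of 479 values for single named genes under the alternatives, 435 kept direction and call, 19 lost the call, 10 gained it and 15 turned direction, the last in 9 promoters or bodies that were not called and changed by at most 1.18 points. The single tests, the minimum of 10 CpGs a region and the limit of 5 points left each mean change as it was. Direction could not turn in those settings, and the limit of 5 points could add no call. The 435 therefore include values that were fixed in advance in these respects. The Abcb4 promoter turned to -0.11 points at 10 reads, -0.15 at 20 reads, -0.11 after thinning and -0.20 with 1 CpG per 100 bp and strand, and the Abcb4 body to -5.49, -2.16 and, with 1 CpG per 100 bp and strand, -0.86. The Abcb11 body turned to 0.43 points at 20 reads and 0.35 after thinning. With 1 CpG per 100 bp and strand the promoters of Abcc3 and Abcc8 turned to 0.46 and 0.73 points and the bodies of Abcg5 and Abcc5 to -0.24 and -1.05. The Abcc4 promoter turned to 0.029 points with strands summed, and the Abcc5 promoter to -0.019 points within 500 bp of the 5' end.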

Other observations

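Promoters of several liver transporters held no CpG with 5 reads in both libraries, and their reads at any depth are given as values chosen after the data were seen, with 95% Wilson intervals that cover counting error only. Slco2b1 had 55.9% of 34 reads in KI (39.5 to 71.1) and 42.4% of 59 in WT (30.6 to 55.1). Abcg5, the sterol exporter, had 2.38% of 42 reads in KI (0.422 to 12.3) and 10.5% of 38 in WT (4.17 to 24.1). Abcb11, the bile salt export pump, had 11.1% of 9 reads in KI and 28.6% of 21 in WT. Slco1a1 had 4 reads in each library, Abcc2 had 4 in KI and 2 in WT, and Slco1a4 had none in either. For these genes a difference was not detectable at this depth.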
